A study of Mus musculus with 12 samples.

Results

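The Notch pathway was followed through 10 genes of the newborn mouse lung: the receptors Notch1, Notch2, Notch3 and Notch4, the ligands Jag1, Jag2, Dll1 and Dll4, and the target genes Hes1 and Hey1. They were chosen by name, with earlier results of these data known, as the transcripts that the platform's gene table pairs with one of these symbols and no other, and all 10 of 10 were found among 22180 genes measured. Dll1 has 2 such transcripts, of which the one with the higher mean over all arrays was taken. Lung RNA from the right superior lobe went onto 12 arrays, 1 for each mouse, in 4 groups of 3. Sphk1 encodes sphingosine kinase 1, which makes the signalling lipid sphingosine 1-phosphate. WT RA and SK RA are wild type and Sphk1 knockout (Sphk1-/-) pups kept in room air, and WT HO and SK HO are such pups kept with their dams in 75% oxygen for 7 days from postnatal day 1. The loss of Sphk1 is not restricted to a cell type. Both genotypes carry a mixed genetic background, since the knockout line had been crossed to C57BL/6 for a limited number of generations and the WT mice were hybrids of that background. The sources used here do not say which pups shared a litter.

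In Notch signaling a ligand on one cell binds a receptor on its neighbour, the protease Adam10 and then the gamma-secretase complex cut the receptor, and the freed intracellular part joins the DNA-binding protein Rbpj and a Mastermind coactivator in the nucleus to switch on genes of the Hes and Hey families. In the lung, Dll4, Notch1 and Notch4 are best known from endothelium, where Dll4 limits vessel sprouting and marks arterial cells, Notch3 from pericytes and vascular smooth muscle, and Notch2 and the Jagged ligands from airway cell fate and from the mesenchyme that forms alveoli. Hes1 and Hey1 encode transcriptional repressors, and Hey1 is a Notch target of blood vessels.

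The arrays carried the lung genes they should, with Sftpc, the surfactant protein of alveolar type II cells, at 12.59 to 13.40 on the log2 scale. Sphk1 itself read 4.90 to 5.40 in WT RA and 5.59 to 5.84 in SK RA, which were not called different, and 6.79 to 7.5 in WT HO and 5.57 to 6.28 in SK HO, which was lower by 1.26 (adjusted p = 0.00816). The place of its probes relative to the deletion is not known, so these values do not settle the labels. SK RA 1 and SK HO 1 stood apart, with a median over all transcripts of 4.99 and 4.89 against 4.76 to 4.85 on the other arrays and a lower correlation with their own groups. The methods state male pups, yet Xist, the RNA of the inactive X chromosome, was high in 8 of 12 arrays (8.41 to 10.15) and low in 4 (3.47 to 4.69), and the 4 with low Xist had the higher Y-linked genes. By group, low Xist was found in WT RA 3, in no WT HO mouse, in SK RA 1 and in both SK HO 1 and SK HO 2, so the groups differ in this respect. All 10 members lay above the 95th percentile of 1390 odorant and vomeronasal receptor transcripts, taken as background (4.57 to 4.93), on every array, and their lowest value was 5.35.

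In WT lungs, 75% oxygen went with lower Notch3, Hey1, Dll4 and Jag2 and with higher Dll1. In SK lungs, Dll1 and Notch4 fell and no other member passed the test. Of the differences between the genotypes' oxygen responses, that of Dll1 passed, and under oxygen SK lungs held less Dll1 and more Dll4 and Hey1 than WT lungs. Notch1, Notch2, Jag1 and Hes1 passed in none of the 5 comparisons. All values below are log2 expression values, so that a difference of 1 is a 2-fold difference, each adjusted p is from limma over all 41345 transcripts, and a called gene is one with an adjusted p under 0.05.

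**Figure D1:**
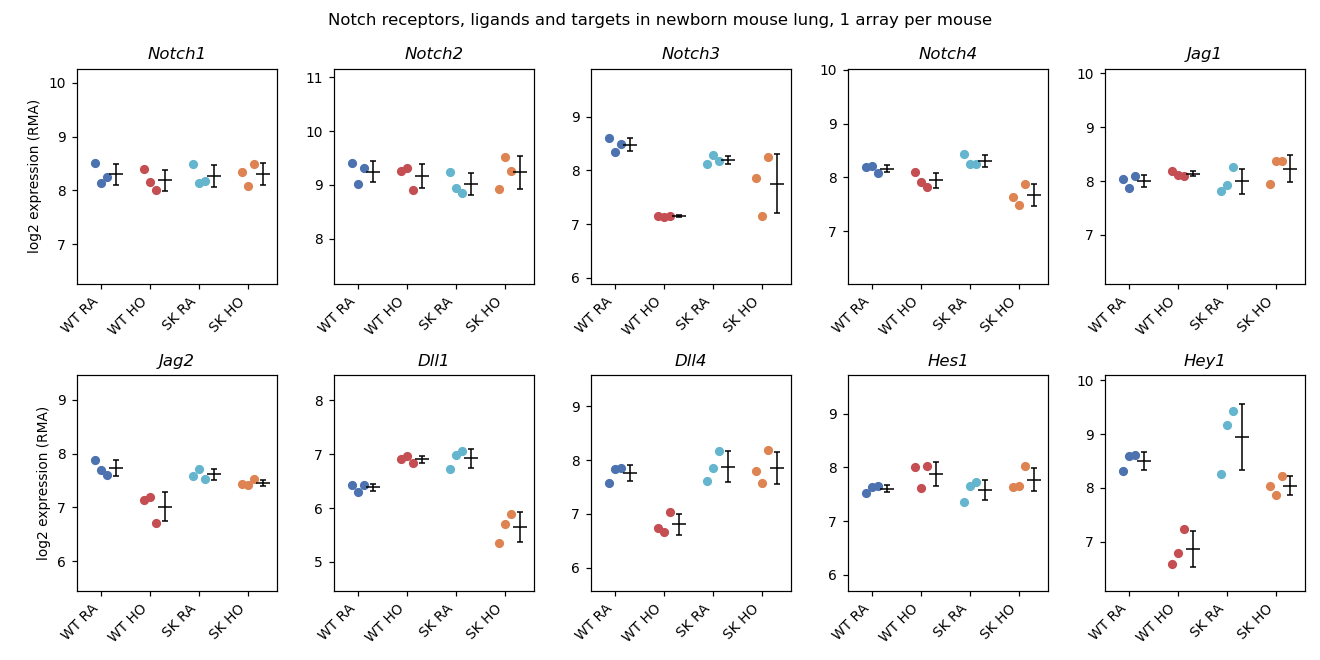
Log2 expression of the 10 members (vertical axis, one panel per gene, each covering the same number of log2 units) in the 4 groups of 3 mice (horizontal axis), with each point 1 array and the bar the group mean with its SD. Dll1 is lowest in SK HO (5.35 to 5.89), Hey1 and Dll4 are lowest in WT HO, and Notch1, Notch2, Jag1 and Hes1 overlap between all groups or nearly so.

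Among the receptors, Notch3, the receptor of vascular mural cells, read 8.60, 8.35 and 8.49 in WT RA and 7.15, 7.13 and 7.16 in WT HO. The WT groups did not overlap, and the WT HO mice had an SD of 0.02. Notch3 thus fell 2.53-fold in WT HO, by 1.34 on the log2 scale (SE 0.22, 95% interval -1.82 to -0.85, adjusted p = 0.00176). In this bulk tissue, fewer cells of a type and less RNA per cell cannot be told apart, for this gene and for the others.

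In SK lungs Notch3 read 8.12, 8.28 and 8.18 in room air and 7.85, 7.16 and 8.25 under oxygen. The SK HO mice were split, with SK HO 2 at the level of WT HO and SK HO 3 at that of SK RA. The difference SK HO minus SK RA was -0.43 (interval -0.92 to 0.05, adjusted p = 0.422), and the response in SK exceeded that in WT by 0.90 (SE 0.31, interval 0.22 to 1.59, adjusted p = 0.149). Neither passed. Without SK HO 2 the difference between responses was 1.20 (adjusted p = 0.00618) and SK HO exceeded WT HO by 0.91 (adjusted p = 0.00486), against 0.61 (adjusted p = 0.155) with it, while SK HO differed from SK RA by -0.14 (adjusted p = 0.826).

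Notch4, a receptor largely restricted to endothelium, read 8.20, 8.21 and 8.08 in WT RA and 8.10, 7.92 and 7.82 in WT HO. In SK RA it read 8.43, 8.25 and 8.24, and in SK HO 7.64, 7.49 and 7.88. The SK groups did not overlap, while WT RA 3 lay below WT HO 1. Notch4 fell 1.56-fold in SK HO against SK RA, by 0.64 on the log2 scale (SE 0.14, interval -0.94 to -0.34, adjusted p = 0.0351), and WT HO differed from WT RA by -0.22 (interval -0.52 to 0.08, adjusted p = 0.359). The responses were not shown to differ between the genotypes, with a difference of -0.42 (adjusted p = 0.294). The call in SK is a weak one. It passed in 9 of 23 alternative settings and in 3 of the 12 that left out 1 array, with an adjusted p of 0.129 without SK HO 2. Among the 8 arrays with high Xist, where SK HO 3 is the only SK HO array, the difference was -0.36.

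Notch1, the receptor for which endothelial and airway roles are both known, had group means of 8.30 (room air) and 8.19 (oxygen) in WT and of 8.27 and 8.31 in SK, with SDs of 0.19 to 0.20. The lowest and the highest array, 8.01 and 8.51, were both WT. Notch2, a receptor of mesenchyme and airway, had group means of 9.24 and 9.16 in WT and of 9.01 and 9.23 in SK, with SDs of 0.20 to 0.30. The intervals of the oxygen effect were -0.48 to 0.25 for Notch1 and -0.50 to 0.34 for Notch2 in WT, and -0.33 to 0.40 and -0.20 to 0.64 in SK. Differences within these bounds could not be resolved with 3 mice a group.

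Among the ligands, Dll4, the endothelial ligand of arterial and sprouting vessels, read 7.58, 7.83 and 7.85 in WT RA and 6.73, 6.66 and 7.03 in WT HO. In SK RA it read 7.61, 7.86 and 8.17, and in SK HO 7.80, 7.58 and 8.18. WT HO lay below all the other 9 arrays, which overlapped each other. Dll4 fell 1.93-fold in WT HO, by 0.95 on the log2 scale (SE 0.19, interval -1.37 to -0.53, adjusted p = 0.00619), and differed by -0.03 in SK (interval -0.45 to 0.40, adjusted p = 0.976). Under oxygen SK lungs held 2.07-fold more Dll4 than WT lungs, a difference of 1.05 (SE 0.19, adjusted p = 0.00832). The oxygen responses of SK and WT differed by 0.92 (SE 0.27, interval 0.33 to 1.52, adjusted p = 0.088), which missed the threshold, and with the replicate number as a block it was called (adjusted p = 0.0294). A further transcript carries the symbols Gm14207 and Dll4 together and was not taken. It read 5.24, 5.30 and 4.86 in WT RA and 4.97, 5.17 and 4.88 in WT HO, which overlap. In SK RA it read 5.58, 5.21 and 5.45, and in SK HO 5.23, 5.34 and 5.23. These values lie little above the level taken as background.

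Jag2, a Jagged ligand of airway and vessels, read 7.89, 7.70 and 7.60 in WT RA and 7.14, 7.19 and 6.71 in WT HO. In SK it read 7.59, 7.72 and 7.53 in room air and 7.43, 7.41 and 7.52 under oxygen. All 3 WT HO mice were below the other 9 mice. Jag2 fell 1.65-fold in WT HO, by 0.72 on the log2 scale (SE 0.15, interval -1.04 to -0.39, adjusted p = 0.00663), while the SK groups differed by -0.16 (adjusted p = 0.739). SK HO exceeded WT HO by 0.44 (adjusted p = 0.119) and the responses differed by 0.56 (SE 0.21, interval 0.10 to 1.02, adjusted p = 0.183), neither past the threshold. Jag1, the Jagged ligand of vascular smooth muscle, endothelium and airway, had a group mean of 8.0 in both room air groups, and under oxygen of 8.13 in WT and 8.23 in SK. Its oxygen effect was 0.14 in WT (interval -0.21 to 0.49) and 0.24 in SK (interval -0.11 to 0.59).

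Dll1, a Delta ligand best known from arterial endothelium and from developing epithelia, was the member whose oxygen response turned round between the genotypes. It read 6.43, 6.30 and 6.42 in WT RA and 6.91, 6.96 and 6.84 in WT HO. It read 6.73, 6.99 and 7.06 in SK RA and 5.35, 5.70 and 5.89 in SK HO. In WT every oxygen-exposed mouse lay above every room air mouse, and in SK every one lay below. SK RA and WT HO overlapped at the top, WT RA lay between, and SK HO was lowest.

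Dll1 rose 1.44-fold in WT HO, by 0.52 on the log2 scale (SE 0.15, interval 0.19 to 0.86, adjusted p = 0.0397). It fell 2.43-fold in SK HO, by 1.28 (SE 0.15, interval -1.61 to -0.95, adjusted p = 0.00173). The difference between these responses was -1.80 (SE 0.21, interval -2.27 to -1.33, adjusted p = 0.000615), and Dll1 was 2.39-fold lower in SK HO than in WT HO (adjusted p = 0.000693). In room air SK exceeded WT by 0.55 (SE 0.15, interval 0.21 to 0.88), with no overlap, yet without passing (adjusted p = 0.137). The rise in WT held in 12 of 23 alternative settings and was lost without any single WT array or SK RA 2 (adjusted p of 0.0553 to 0.124), while the difference between responses held in all 22 that gave one.

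The transcript of Dll1 that was not taken read 4.67, 4.98 and 4.90 in WT RA, 4.60, 4.80 and 4.65 in WT HO, 5.23, 5.25 and 5.26 in SK RA and 4.72, 4.88 and 4.65 in SK HO. These values lie about the level taken as background. It was highest in SK RA, with no overlap with the other groups, and was called in no comparison, with an oxygen effect of -0.17 in WT (adjusted p = 0.455) and -0.50 in SK (adjusted p = 0.066). It did not show the rise in WT HO, and its difference between responses was -0.33 (adjusted p = 0.383). In this transcript SK HO differed from WT HO by 0.07 (adjusted p = 0.836), so the lower level in SK HO was not seen there. With the mean of both transcripts the rise in WT was 0.18 (adjusted p = 0.385) and the difference between responses was -1.07, which was still called. That mean holds the transcript taken, so it is no separate measure. The sources used here do not say which Dll1 RNA each transcript measures.

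**Figure D2:**
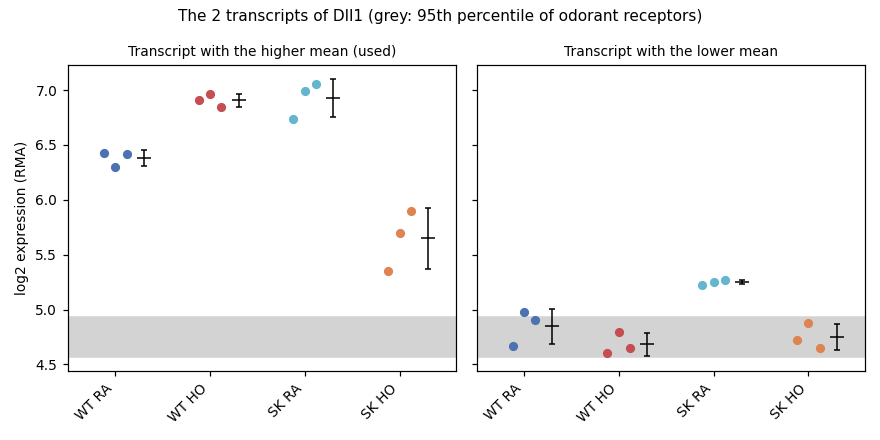
Log2 expression (vertical axis) of the 2 transcripts that carry the symbol Dll1, by group (horizontal axis), with points for arrays, bars for the group mean with its SD and a grey band for the background level (4.57 to 4.93). The transcript on the left, from which the text takes Dll1, spans 5.35 to 7.06 and is lowest in SK HO, and the other spans 4.60 to 5.26, with SK RA above the band.

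Since Dll1 and Dll4 are the ligands that differed between the genotypes under oxygen, the stretches before their transcription starts are shown. They come from RefSeq on GRCm38.p6, are read 5′ to 3′ on the gene's strand, and lie at chr17:15376933-15377182 (minus strand) for Dll1 and chr2:119325534-119325783 (plus strand) for Dll4. Capitals mark CACGCG, the class C site to which Hes and Hey repressors are known to bind.
Dll1: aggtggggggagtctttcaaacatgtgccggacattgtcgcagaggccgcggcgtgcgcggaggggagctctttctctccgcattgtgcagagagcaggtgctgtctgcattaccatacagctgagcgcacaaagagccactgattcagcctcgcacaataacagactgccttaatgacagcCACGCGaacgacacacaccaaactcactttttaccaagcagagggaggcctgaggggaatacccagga
Dll4: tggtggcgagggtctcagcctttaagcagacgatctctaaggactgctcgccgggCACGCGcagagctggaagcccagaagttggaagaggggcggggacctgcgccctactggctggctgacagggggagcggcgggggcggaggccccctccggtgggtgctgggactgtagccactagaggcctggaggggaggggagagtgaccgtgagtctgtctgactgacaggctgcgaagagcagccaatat
Both strands were searched over windows of 250 bases before to 50 bases after each start, and 8 of the 10 members had a window (9 windows in all), while Hes1 and Hey1 are named only. The class C site CACGCG occurred in 5 of the 9 windows, those of Dll1 (position -68), Dll4 (-195), Jag1, Notch2 and Jag2 (19 bases after the start), and in 9.27% of all 32851 windows. The Rbpj motif GTGGGAA occurred in 0 of the 9 windows and in 6.38% of all, and the E-box CACGTG in 0 of 9 and in 7.15% of all. A match is a run of letters and does not show that a factor binds there.

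Among the targets, Hey1, the vascular Hey repressor, read 8.31, 8.59 and 8.61 in WT RA and 6.59, 6.78 and 7.24 in WT HO. In SK it read 8.25, 9.16 and 9.42 in room air and 8.03, 7.87 and 8.22 under oxygen. Neither genotype's groups overlapped, and WT HO lay below all other arrays. Hey1 had the largest change of the 10 members in WT, a 3.11-fold fall, by 1.64 on the log2 scale (SE 0.27, interval -2.23 to -1.04, adjusted p = 0.00186).

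In SK the difference in Hey1 was -0.90 (SE 0.27, interval -1.50 to -0.31, adjusted p = 0.128), which did not pass. SK RA 1, an array that stood apart, was the lowest SK RA mouse for Hey1, and without it the difference was -1.25 (adjusted p = 0.0139). SK HO held 2.25-fold more Hey1 than WT HO, a difference of 1.17 (SE 0.27, interval 0.57 to 1.77, adjusted p = 0.0283), and this passed in 16 of 23 alternative settings and was lost without WT HO 1, WT HO 2, SK HO 1 or SK HO 3 (adjusted p up to 0.106). The responses were not shown to differ, at 0.73 (SE 0.38, interval -0.11 to 1.58, adjusted p = 0.375).

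Hes1, the Notch target of many tissues, showed no called difference. It read 7.53, 7.64 and 7.65 in WT RA and 8.0, 7.62 and 8.02 in WT HO, and its group means in SK were 7.58 and 7.77. The WT groups overlapped through WT HO 2. Its oxygen effect was 0.27 in WT (interval -0.08 to 0.63, adjusted p = 0.324) and 0.19 in SK (interval -0.17 to 0.54, adjusted p = 0.699). The correlation of Hes1 with Hey1 was -0.37 over the 12 arrays and 0.67 within groups (deviations from the group means).

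Counted over the members, WT HO against WT RA gave 1 higher, 4 lower and 5 not called of 10, where 14.9% of all transcripts were called (8.58% higher and 6.35% lower). The members' median difference was -0.16, against 0.01 over all transcripts, and 5 of 10 had groups that did not overlap, against 34.3% of all. SK HO against SK RA gave 0 higher and 2 lower, where 2.34% of all transcripts were called (1.02% higher and 1.32% lower), with a median of -0.09 against 0.00 and with 4 of 10 not overlapping against 17.1%. These 2 comparisons share no group of mice, yet their tests are not independent, since limma took each transcript's variance from all groups. With only the groups compared, 0 members were called in SK HO against SK RA.

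**Figure D3:**
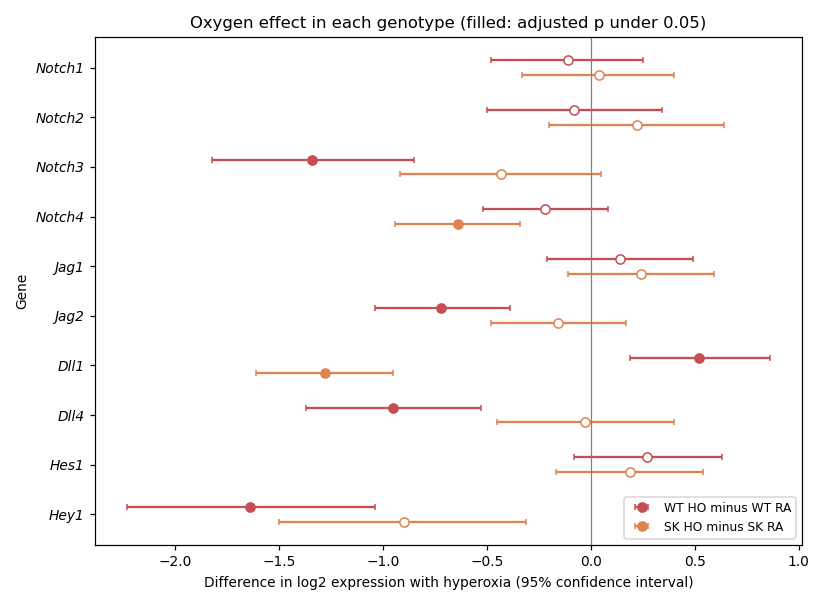
Difference under oxygen for each of the 10 members (horizontal axis, log2, hyperoxia minus room air, with 95% interval) in WT and in SK mice, 3 mice per group, filled where the adjusted p was under 0.05. Dll1 lies above 0 in WT (0.52) and below 0 in SK (-1.28), and Notch3, Hey1, Dll4 and Jag2 lie further below 0 in WT than in SK.

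In room air, no member was called between SK and WT, 1 of 10 had an unadjusted p under 0.05, and 1.15% of all transcripts were called. Dll1 was the one with the unadjusted p under 0.05. The ordinary variance called 0 of the 10 as well. In 3 of 10 members, Dll1, Notch3 and Notch4, the room air groups did not overlap, against 18.8% of all transcripts. Under oxygen, SK HO against WT HO gave 2 higher and 1 lower, where 5.74% of all transcripts were called (2.82% higher and 2.92% lower), and 4 of 10 did not overlap against 23.6%. The difference between responses was called for 1 of 10, where 4.79% of all transcripts were called (2.19% higher and 2.60% lower), and that gene was Dll1. The comparisons that share a group are not independent of each other.

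Beyond the members, 45 of 48 other genes of the pathway were measured. In WT HO against WT RA, where 14.9% of all transcripts were called (8.58% higher and 6.35% lower), 1 of the 45 was higher and 9 were lower, with a median of -0.20. The lower ones held the noncanonical ligand Dlk1 (fell by 2.49, adjusted p = 9.65e-05, with 2 of 3 WT HO arrays not above background, so that the size is not exact), the arterial ephrin ligand and Notch target Efnb2 (fell by 1.44, adjusted p = 0.000162), the Rbpj-like factor Rbpjl (fell by 1.26, adjusted p = 0.000846), the Mastermind coactivator Maml3 (fell by 0.81) and the receptor protease Adam10 (fell by 0.71, adjusted p = 0.00205). Among the genes that prepare ligands for signaling, the ubiquitin ligases Neurl1b and Mib1 fell by 0.82 and 0.64, and the gamma-secretase subunit Aph1b fell by 0.60. Psenen, another gamma-secretase subunit, rose by 0.56 (adjusted p = 0.0252), and its other transcript by 0.76. Kdm5a, a histone demethylase that acts with Rbpj in repression, fell by 0.49. The calls of Psenen and Kdm5a passed in 17 and 15 of 23 alternative settings, and both were lost without any single WT HO array (adjusted p up to 0.0806 and 0.112).

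Between SK HO and SK RA, where 2.34% of all transcripts were called (1.02% higher and 1.32% lower), 1 of the 45 was higher and 2 were lower, with a median of -0.09. Sox9, an epithelial progenitor factor, rose by 0.88 (adjusted p = 0.0189). Efnb2 fell by 0.74 (adjusted p = 0.0418) and Numb, an inhibitor of Notch receptors, fell by 0.65 (adjusted p = 0.0347). In SK the calls of Efnb2 and Numb were weak ones, passing in 7 and 8 of 23 alternative settings, and that of Sox9 in 17. Efnb2 was the only one of the 45 called in both genotypes, and in both it fell. It read 9.83, 9.93 and 10.08 in WT RA and 8.43, 8.56 and 8.52 in WT HO, and 10.01, 10.44 and 10.54 in SK RA and 9.69, 9.33 and 9.74 in SK HO. WT HO lay below SK HO with no overlap, by 1.08 (adjusted p = 0.00282).

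In SK HO against WT HO, where 5.74% of all transcripts were called (2.82% higher and 2.92% lower), 8 of the 45 were higher and 0 lower, with a median of 0.06. The higher ones were Rbpjl (1.67), Dlk1 (1.42), Efnb2 (1.08), Maml3 (0.79), Adam10 (0.67), the related protease Adam17 (0.62), Mib1 (0.55) and the Rbpj corepressor Spen (0.53). Psenen differed by -0.56 (adjusted p = 0.0518), just short of the threshold. Its other transcript, which does not enter these counts, was lower by 0.70 and passed (adjusted p = 0.0354). The calls of Mib1, Spen and Adam17 passed in 8, 13 and 14 of 23 alternative settings, and that of Maml3 in 17. In room air, where 1.15% of all transcripts were called, Dlk1 was lower in SK than in WT by 1.54 (adjusted p = 0.0176), the only one of the 45 called there. This passed in 16 of 23 alternative settings and was lost with the ordinary variance and without WT RA 1, WT RA 3 or any single SK RA array (adjusted p of 0.0578 to 0.0711). The difference between responses was called for 3 of the 45, where 4.79% of all transcripts were called. The responses differed for Dlk1, Rbpjl and Adam10, by 2.96 (adjusted p = 0.000883), 1.13 (adjusted p = 0.031) and 0.82 (adjusted p = 0.0183). These passed in 22, 8 and 19 of 22 alternative settings, so the one for Rbpjl is the least firm. Dlk1 read 6.97, 6.78 and 7.31 in WT RA, 4.23, 4.56 and 4.82 in WT HO, 5.42, 5.56 and 5.46 in SK RA and 5.60, 6.62 and 5.64 in SK HO. WT HO was lowest without overlap, about the level taken as background, and SK RA and SK HO lay between it and WT RA.

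Rbpjl read 7.58, 7.35 and 7.36 in WT RA and 5.86, 6.08 and 6.59 in WT HO, and 7.64 to 8.07 in the 6 SK mice. Adam10 read 9.65 to 9.74 in WT RA and 8.91 to 9.06 in WT HO, and 9.34 to 9.68 in the 6 SK mice. In both genes the WT HO mice stood below all others. The other Hes and Hey family genes on the list (Hes5, Hes6, Hes7, Hey2 and Heyl) and Nrarp were called in no comparison, unlike the Notch target Efnb2. Rbpj itself differed by -0.31 in WT (adjusted p = 0.0705). Rbpj, Hes5 and Hes7 have 2 transcripts each, and these statements hold for the one with the higher mean.

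**Figure D4:**
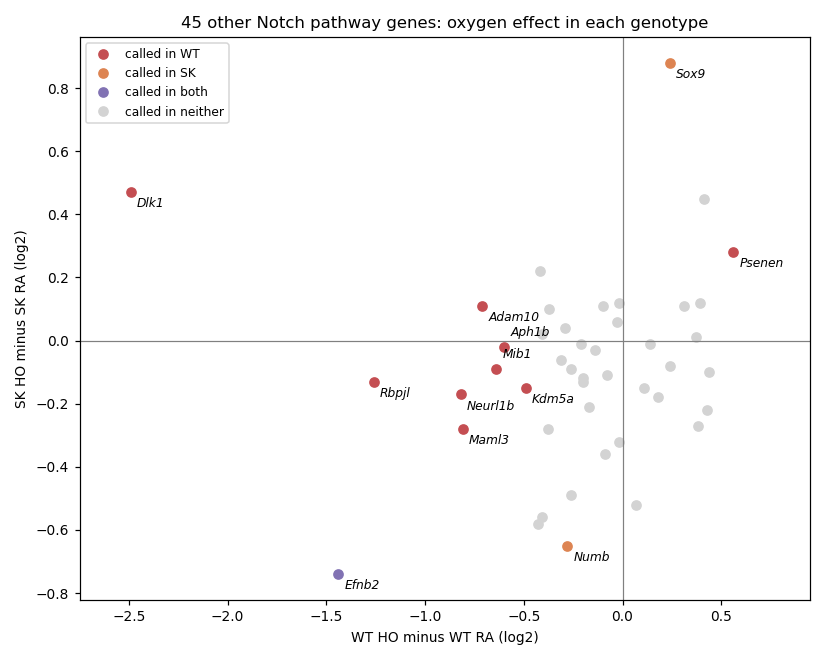
Oxygen response in SK (vertical axis, log2 SK HO minus SK RA) against that in WT (horizontal axis, log2 WT HO minus WT RA) for the 45 other pathway genes, each point 1 gene, with colour for the genotype in which it was called. All genes called in WT but Psenen lie to the left of 0 (Dlk1 at -2.49, Efnb2 at -1.44), and Efnb2 is the one called in both genotypes.

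The Rbpj motif GTGGGAA was found on either strand in 8 of the 48 windows of the 37 other pathway genes that had one, against 6.38% of all windows, among them the classical targets Hes5, Hey2 and Lfng, and Rbpjl, whose response differed between the genotypes. The sites are shown with 12 bases on each side, the motif or its reverse complement in capitals, on the gene's strand of GRCm38.p6 (RefSeq), to set the form of a known target beside that of Rbpjl. They lie at chr2:164403077-164403107 for Rbpjl, chr4:154960685-154960715 and chr4:154960828-154960858 for Hes5, chr10:30842972-30843002 (minus strand) for Hey2 and chr5:140607220-140607250 for Lfng. A further site in the Hey2 window, at position -4, is not shown.
Rbpjl: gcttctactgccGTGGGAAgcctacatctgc
Hes5 upstream site: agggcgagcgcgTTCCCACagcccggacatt
Hes5 proximal site: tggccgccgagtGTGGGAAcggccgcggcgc
Hey2: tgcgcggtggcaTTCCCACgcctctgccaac
Lfng: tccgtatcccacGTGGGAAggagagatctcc
Hes5, Hey2 and Lfng carry such a site and were called in no comparison, while Rbpjl carries one and fell in WT HO. Of the 8 genes with the motif, Rbpjl and Spen were called in at least 1 comparison and the rest in none. Of all 45 other pathway genes measured, 14 were called in at least 1.

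Markers of the vessel cells that carry these genes moved in the same arrays. A list's score is the mean of its genes' log2 values after centring each gene on its 12-array average, and none of the lists below holds a member. Beside the counts of called genes stand the shares over all transcripts, 14.9% in WT, 2.34% in SK and 5.74% between SK HO and WT HO. The 9 pericyte genes scored 0.25 to 0.44 in WT RA and -0.62 to -0.58 in WT HO. In WT, 5 were called lower, among them Rgs5 (fell by 3.31) and Pdgfrb (fell by 0.91). Trpc6 was called higher (rose by 0.56, adjusted p = 0.0348), and 3 were not called. In SK the pericyte genes scored 0.22 to 0.57 in room air and -0.53 to 0.05 under oxygen, with 3 lower. The 8 smooth muscle genes scored 0.05 to 0.15 in WT RA and 0.16 to 0.24 in WT HO. SK HO 2, the SK HO mouse with low Notch3 (7.16), had the lowest pericyte score of its group (-0.53, against -0.11 and 0.05). This was not particular to pericytes. SK HO 2 also scored lowest of its group on the smooth muscle (-0.46), arterial (-0.34), aerocyte capillary (-0.40) and pan-endothelial (-0.27) lists. On the general capillary list SK HO 1 was lowest (-0.86, against -0.82 in SK HO 2). A link of these scores to Notch3 was not tested.

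The 7 arterial genes scored 0.24 to 0.46 in WT RA, -0.63 to -0.53 in WT HO, 0.09 to 0.45 in SK RA and -0.34 to 0.07 in SK HO, with 4 called lower in WT, 2 lower in SK and 3 higher in SK HO than in WT HO. The 3 higher in SK HO than in WT HO were Fbln5 (2.0), Dkk2 (1.01) and Sox17 (0.88), and the others differed by -0.34 to 0.03. Dkk2 in WT HO (4.37 to 4.88) lay about the level taken as background. By group mean, Sox17, Dkk2, Fbln5 and Gja4 were lowest in WT HO, Gja4 by little (6.57 against 6.6 in SK HO), and Gja5, Bmx and Cxcl12 were lowest in SK HO. The 5 general capillary genes scored 0.65 to 1.05 in the room air mice and -0.94 to -0.66 in the oxygen mice of both genotypes. Of these genes, 3 were called lower in WT and 4 in SK. Single genes differed between the genotypes behind these like scores. In SK HO against WT HO, Aplnr was higher (1.71, adjusted p = 0.00398), Gpihbp1 was lower (-1.1, adjusted p = 0.00135) and 3 were not called. The oxygen effect on Aplnr was -4.35 in WT and -2.63 in SK, and on Gpihbp1 -0.3 (not called) and -1.86. Of the 12 pan-endothelial genes 2 were called higher and 4 lower in WT, and 3 lower in SK. In WT, Tek fell by 1.71, Erg by 1.38, Tie1 by 1.25 and Kdr by 0.99, while Robo4 rose by 1.33 and Egfl7 by 0.87. Pecam1 and Cdh5 differed by 0.00 and 0.23 in WT (adjusted p = 0.99 and 0.217). In SK, Pecam1 fell by 0.63 (adjusted p = 0.0346) and Tek by 1.55, and Cdh5 differed by -0.06 (adjusted p = 0.895). The part of these cell types in the differences of the members was not tested.

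**Figure D5:**
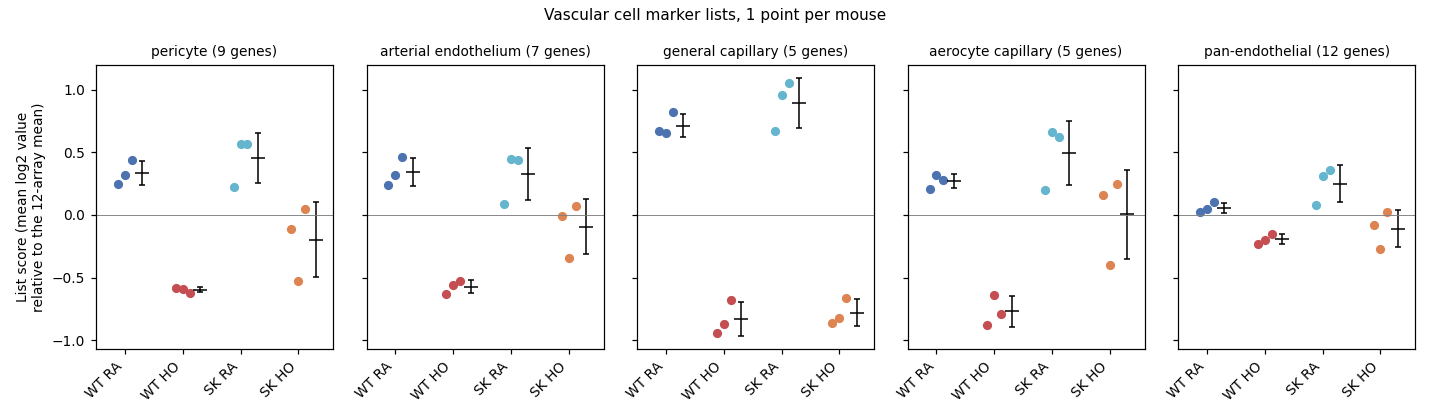
Score of the vascular marker lists on each of the 12 arrays (vertical axis, mean log2 value relative to the 12-array mean), by group (horizontal axis), with points for arrays and bars for the group mean with its SD. Pericyte and arterial scores are lowest in the WT HO mice (-0.62 to -0.58 and -0.63 to -0.53), and the general capillary score is at -0.66 or below in both oxygen groups.

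By the correlation over the 12 arrays, which follows the group means as well as the spread within groups and is given as a description, the genes most like Notch3 were Pdlim3 (0.984), Adamtsl3 (0.983) and Postn (0.979). Those most like Dll4 were Matn4 (0.974), Nrp1 (0.971), the endothelial coreceptor of vascular growth factor, and Sftpc (0.963). Those most like Dll1 were Snx21 (0.981), Cd36 (0.962), a fatty acid receptor of capillaries and macrophages, and Pea15a (0.961). For Hey1 they were Abi2, Bmf and Col6a1 (each 0.987). For Notch2, Notch1, Hes1 and Jag1, called in no comparison, the closest were Relch (0.863), Mir181b-1 (0.875), A930007A09Rik (0.911) and Gatb (0.918). For Notch4, called in SK, the closest was Itpr2 (0.924). Among the members themselves, Dll4 and Hey1 were the closest pair over the 12 arrays, at 0.90, with 0.84 within groups, where Jag1 and Dll1 reached 0.86 and Dll4 and Hes1 0.84. Notch3 and Jag2 stood at 0.85 over the arrays and at 0.23 within groups.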

How the data were processed

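RNA of 12 lungs was measured on Affymetrix mouse gene arrays, 3 mice in each of 4 groups. The authors deposited log2 expression values per transcript, made in Partek Genomics Suite by robust multi-array averaging (background correction, quantile normalization and summarization of probes). For the arrays, the sources used here give no genome build. Groups and replicate numbers came from the labels. Genes were named through the platform's gene table, in which 23521 of 41345 transcripts carry 1 symbol, 1820 carry several and 16004 are not listed. A gene with several transcripts was represented by that of highest mean over the arrays.

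Differences were tested with limma 3.58.1 in R 4.3.3 (1 mean per group over all 12 arrays, eBayes, 8 residual and 3.247 prior degrees of freedom), and p-values were adjusted by Benjamini-Hochberg over all transcripts. The methods describe an analysis of variance with oxygen and genotype as factors, and the ordinary variance of each transcript was an alternative. For arrays no depth applies, and their number limits the precision. All 10 members passed a filter at the 40th percentile of the transcript means.

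The members and gene lists were chosen with earlier results of these data known. The text names all members, other pathway genes that were called, the 3 genes most like a member, and Sphk1. Hes5, Hes6, Hes7, Hey2, Heyl, Nrarp, Lfng and Rbpj and the marker genes are named beside these. Marker lists covered vessel, muscle, airway, neuroendocrine, fat and T cells. Samples with equal replicate numbers deviated from their group means together in SK RA and SK HO (correlations of 0.398, 0.193 and 0.21) but not in WT RA and WT HO (0.121, -0.00989 and 0.0611). Across genotypes, replicate 1 stood at 0.25 (WT RA with SK RA), 0.208 (WT RA with SK HO) and 0.211 (WT HO with SK RA). The other pairs across genotypes lay at -0.0609 to 0.157. The labels give no reason for a pairing.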

Additional observations from a re-analysis of the deposited data

Results flagged for a closer look

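Groups of 3 mice are too small for a test of single arrays that lie apart, so the results given here are those in which the oxygen response of SK mice differed from that of WT mice by the test of the difference itself (limma, adjusted over all transcripts). Dll1 differed by -1.80 (adjusted p = 0.000615), lying higher in 3 of 3 WT HO mice than in every WT RA mouse and lower in 3 of 3 SK HO mice than in every SK RA mouse. Its other transcript, about the level taken as background, differed by -0.33 and was not called (adjusted p = 0.383). Of the other genes of the pathway, Dlk1 differed by 2.96 (adjusted p = 0.000883), a size that is not exact since 2 of 3 WT HO arrays were not above background, Rbpjl by 1.13 (adjusted p = 0.031) and Adam10 by 0.82 (adjusted p = 0.0183), and in all 3 of these the WT HO mice were the lowest of the 4 groups.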

How the results depend on the processing

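Each result was recomputed without each array in turn, with the ordinary variance, with an intensity trend and robust prior, on only the groups compared, with a further quantile normalization, with arrays shifted to 1 median, without low transcripts, with the mean over a gene's transcripts, with Y-linked genes as a covariate and with the replicate number as a block. Leaving out both SK arrays that stand apart and keeping only the 8 arrays with high Xist were added after the data were seen. The high Xist arrays hold SK HO 3 as the only SK HO array. Values and counts on them that involve SK HO, or the difference between responses, thus rest on 1 SK HO mouse. Of 824 such values for called results of members and pathway genes, 669 stayed past the threshold, 155 missed it and 0 reversed. Notch3, Hey1, Dll4 and Jag2 in WT, and Dll1 and Dll4 in SK HO against WT HO, passed in all 23.

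The number of members called in SK HO against SK RA was 2, and 0 with only the groups compared, 1 with arrays shifted to 1 median, 1 with the Y covariate and 0 on the high Xist arrays. For the difference between responses it was 1, and 2 after quantile normalization and on the high Xist arrays. With the replicate block it was 2, Dll4 being added, and the block moved no other count of calls by over 1.5 times. For the other pathway genes, the 3 calls in SK HO against SK RA became 0, 1, 1, 1 and 0 with only the groups compared, 1 median, the Y covariate, both SK arrays out and the high Xist arrays. The 8 in SK HO against WT HO became 4, 5, 4, 5 and 2 in the same order. The 1 in SK RA against WT RA became 0 with the ordinary variance and 0 with both SK arrays out, and the 3 for the difference between responses became 1 with 1 median and 1 on the high Xist arrays. Without 1 array, members called ranged over 4 to 5 (WT HO against WT RA), 1 to 2 (SK HO against SK RA), 0 to 0 (SK RA against WT RA), 2 to 4 (SK HO against WT HO) and 1 to 2 (difference between responses), and other pathway genes over 7 to 11, 0 to 4, 0 to 1, 4 to 9 and 1 to 3 in this order.

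Only differences that were not called changed sign. With the Y covariate these were Notch2 (-0.03) and Hes1 (0.03) in SK HO against WT HO, Jag1 in SK RA against WT RA (0.00), Dll4 in SK HO against SK RA (0.06) and the difference between responses for Hes1 (0.05). On the high Xist arrays they were Jag1 (0.14) and Hes1 (0.10) in SK RA against WT RA, Dll4 (0.16) and Notch3 (0.03) in SK HO against SK RA, Hes1 in SK HO against WT HO (0.14) and Hes1's difference between responses (0.04). With both SK arrays out they were Jag1 (0.09) and Hes1 (0.08) in SK RA against WT RA, and with 1 median Dll4 in SK HO against SK RA (0.01). Without 1 array, sign changes lay within -0.06 to 0.15 (Notch1) and -0.19 to 0.12 (Dll4) in SK HO against SK RA, -0.14 to 0.08 (Notch1), -0.13 to 0.09 (Jag1), -0.02 to 0.26 (Dll4) and -0.10 to 0.08 (Hes1) in SK RA against WT RA, -0.19 to 0.05 (Notch2) in WT HO against WT RA and -0.07 to 0.22 (Notch2) in SK HO against WT HO. The cause was not tested for any of these. Signal limited Dll1's other transcript and Dlk1 in WT HO, which lay about background.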

Other observations

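Markers of other cell types of the lung and its surroundings gave the following values. Over all transcripts, 14.9% were called in WT HO against WT RA and 2.34% in SK HO against SK RA. Aerocyte capillary genes had 3 of 5 called lower in WT HO against WT RA, and 1 higher and 3 lower in SK HO against SK RA. Venous and lymphatic genes had 1 of 7 higher and 3 lower in WT, and 1 higher and 1 lower in SK. Smooth muscle genes had 2 of 8 higher and 1 lower in WT and none called in SK, and their score was 0.16 to 0.24 in WT HO against -0.46 to 0.00 in SK HO. Of the airway lists, club and secretory genes had 3 of 6 higher in WT HO and 1 lower in SK HO, and ciliated genes had 2 of 5 higher in WT and 1 higher in SK. T cell genes had 4 of 5 lower in SK HO against SK RA and 1 higher in WT HO against WT RA. Of the 6 cardiac muscle genes 1 was lower in WT HO, and no basal or neuroendocrine gene was called in either genotype (3 measured in each list). Adipocyte genes varied within groups, with a score of -0.57 to 1.61 in SK RA and of 0.19 to 1.36 in WT HO.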
